A study of Mus musculus with 9 samples.

Results

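The response of RAW264.7 macrophages to LPS was described from the 6 samples, of 9 in the series, that received DMSO or DMSO + LPS. The members are the 12919 of 55401 genes in the deposited table whose mean over these 6 columns was at least 1 TPM (a gene's length-corrected share of a sample's transcripts). RAW264.7 is a wild-type mouse macrophage line that was derived from a tumour induced by Abelson murine leukaemia virus in a male animal, and it is the only line measured here. The 3 DMSO samples received the vehicle alone, and the 3 LPS samples received the same vehicle with LPS. The labels give 24 h of treatment for both groups, as do the results of the study, whereas its methods give a longer one. The replicates of each group carry the numbers 5, 6 and 7. Nothing in the sources used here says that they came from separate cultures, so p-values measure only the spread between these samples, which may be technical.

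LPS is a lipid of the outer wall of Gram-negative bacteria. Macrophages bind it through CD14 and MD-2 (the product of Ly96) and signal through the receptor TLR4. The adaptor MyD88 leads from the receptor to NF-kB and MAP kinases, which switch on cytokine and chemokine genes within hours. The adaptor TRIF leads to interferon beta, which then acts back on the cells and switches on antiviral genes that carry an interferon-stimulated response element (ISRE). LPS is also the standard stimulus for M1 polarization, and the study used it for that purpose.

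The 3 LPS columns were not independent. In all 17950 genes with both columns 6 and 7 above 0, column 5 was their mean to within 5e-06 TPM, so the group holds at most 2 independent values per gene. Per gene 2 values were recovered as column 5 plus and minus 0.5 times its difference from its farther neighbour. They were compared with the 3 DMSO values by limma on log2(TPM + 1), and every log2 fold change below is on that scale. The recovered LPS values lay closer together than the DMSO values. Where columns 6 and 7 are both above 0, they lie by construction 0.5 times as far apart as those columns. Their spread, and so each SE and p-value, rests on this factor. The root mean square SD of log2(TPM + 1) over genes of 10 TPM or more was 0.079 in LPS and 0.191 in DMSO. In 623 genes of the whole table, 10 of them tested, both LPS values were equal above 0 within a rounding tolerance. Any DMSO pair was exactly equal above 0 in 0 to 1 genes. Each result was therefore also computed with LPS as 1 value, an alternative chosen after the data had been seen, in which the lone value is assumed to vary like the DMSO samples. The number of reads behind a column is not known, since TPM is a share. Between 12739 and 13012 genes reached 1 TPM in a column.

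Interferon-induced antiviral genes, chemokines and cytokines gave the largest rises in LPS. Many macrophage lineage and immediate-early transcription factors, glutathione genes and lysosomal genes were lower. At an adjusted p below 0.05 (Benjamini-Hochberg over all 12919 genes) and a fold change above 1.5 or below 0.67, 1554 genes were higher in LPS, which is 12% of the genes tested, and 2496 were lower, which is 19.3%. The filter takes the mean over both groups. A gene with a mean under 1 TPM in 1 group passed only through the other group, so its direction was set by the filter. Large changes were more often increases. A fold change above 16 was reached by 24 of the genes that rose and by 1 of those that fell, and a fold change above 4 by 120 and 99. The fall was spread over more genes of moderate change, with 922 genes lower by more than 2-fold and 543 higher. In 1539 of the genes called higher and 2488 of those called lower the LPS columns did not overlap the DMSO columns, but non-overlap alone was common, at 30.2% of all genes tested for higher and 38.6% for lower. Genes called higher made up between 9.14% and 9.57% of all TPM in DMSO and between 17.6% and 17.8% in LPS, and genes called lower went from between 20.5% and 21% to between 10.3% and 10.7%. The median log2 fold change of all genes was -0.07. Of all calls 38.4% were higher, and median-ratio scaling, which set the median to 0.007, made it 47.8%.

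**Figure D1:**
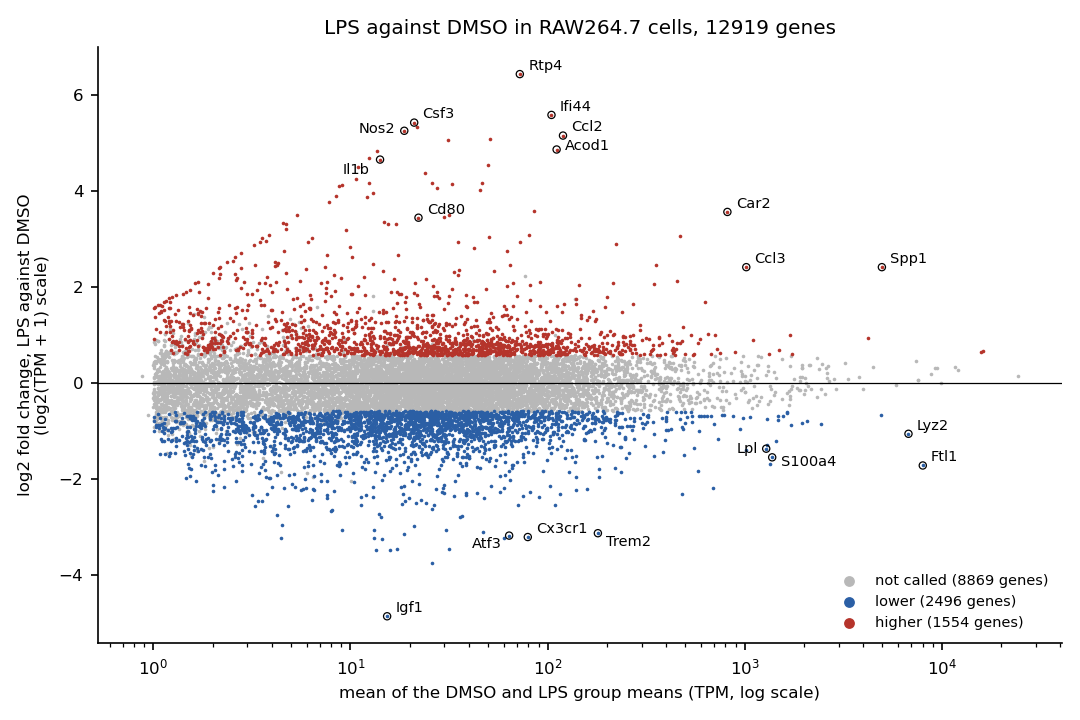
Each point is a gene tested. The horizontal axis is the mean of the DMSO and LPS group means in TPM on a log scale, the vertical axis the log2 fold change on the log2(TPM + 1) scale, with genes called higher in red, lower in blue and not called in grey. Rtp4 lies highest at 6.44 and Igf1 lowest at -4.85, and for genes listed at 0 in DMSO, such as Csf3 and Nos2, the height depends on the pseudocount.

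Fold changes followed the base composition of the transcripts. Across genes the Spearman correlation of log2 fold change with the GC content of the longest transcript was -0.56 over 12905 genes, which are not independent replicates, and that with transcript length was 0.07. Genes were divided into 5 bins of 2581 by GC content. In the bin with the lowest GC content, up to 43.8%, the median log2 fold change was 0.38, with 29.1% called higher and 3.06% called lower. In the bin with the highest, from 55.5%, it was -0.58, with 4.03% called higher and 47.4% called lower. All columns of a group shared the trend. In the highest bin the median deviation from a gene's mean over the 5 values was between 0.23 and 0.25 in the DMSO columns and -0.36 and -0.34 in the LPS values, on the log2(TPM + 1) scale. The cause of the trend was not tested, and because it separates the groups it cannot be told apart from the treatment. Calls were therefore also made after a smooth curve of each column on GC content had been removed, again chosen after the data had been seen, which left 964 genes higher (7.46%) and 1627 lower (12.6%). Of the original calls 48.4% of the higher and 51.4% of the lower remained. With LPS as 1 value 1141 were higher (8.83%) and 1930 lower (14.9%), and with both changes 603 (4.67%) and 1045 (8.09%). Where the GC correction ended a call or moved the calls of a list by more than 1.5 times, it is said beside the result.

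**Figure D2:**
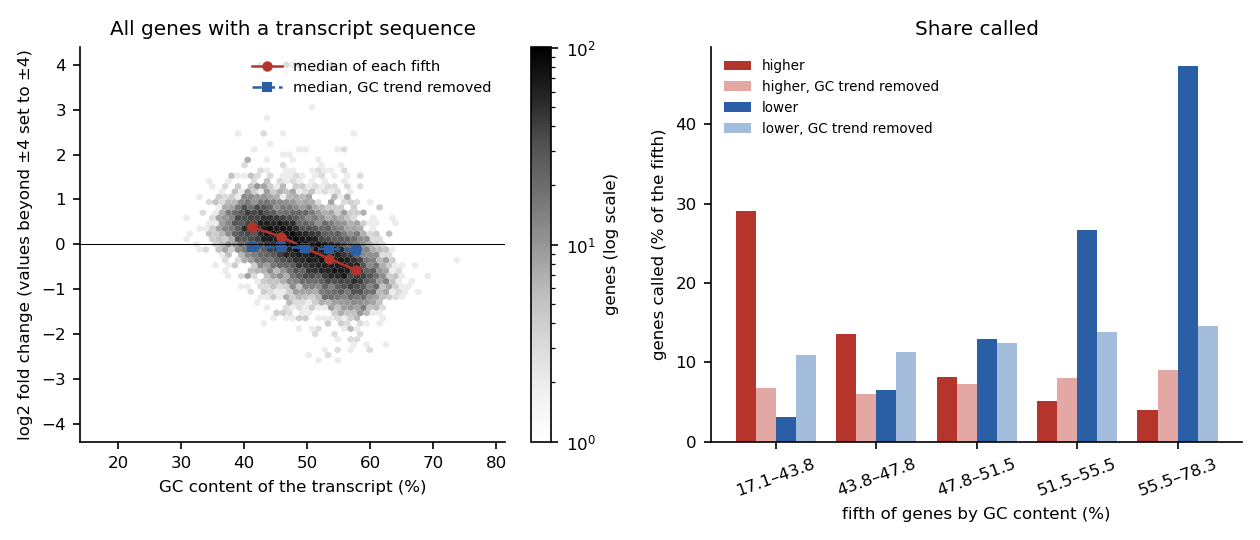
The left panel plots log2 fold change against transcript GC content in percent for all genes with a transcript sequence, shaded by the number of genes on a log scale, with the median of each of 5 bins before (red) and after (blue) the GC trend was removed. The right panel gives the percent of each bin called higher (red) and lower (blue), pale bars after removal. The share called lower climbs from 3.06% to 47.4% across the bins and stays between 10.9% and 14.6% after removal.

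Defining macrophage genes were expressed in both groups. Of 13 macrophage markers 12 passed the filter and Mertk was listed at 0 in all 6 columns. Lyz2, which encodes lysozyme, was 8913, 8866 and 9673 TPM in DMSO and 4423, 4627 and 4219 TPM in LPS. Cd68, a lysosomal glycoprotein of macrophages, was 806, 857 and 855 TPM and then 657, 645 and 669 TPM, and Adgre1, which encodes F4/80, was 24.5, 20.5 and 27.5 TPM and then 20.7, 20.8 and 20.6 TPM. None of the 12 was called higher and 6 were called lower (Lgals3, Fcgr3, Lyz2, Spi1, Ctss and Csf1r), of which Spi1 and Csf1r were not called with the GC trend removed. Of all genes tested 12% were called higher and 19.3% lower. Fewer cells of a type and less RNA per cell cannot be told apart in these bulk samples. Most markers of other cell types were at or near 0. All 12 stromal, epithelial and endothelial markers stayed under 1 TPM in every column, with summed levels from 0.0337 to 0.205 TPM in DMSO and from 0.326 to 0.643 TPM in LPS, and so did all 6 erythroid markers. Of 9 T and NK cell markers 7 were at 0 throughout, Cd3d, Cd3e and Cd3g never reached 1 TPM, and Lck, a kinase, rose from 1.65, 1.36 and 2.16 TPM to 4.61, 4.77 and 4.45 TPM. Of 7 B cell markers 4 were at 0 throughout and 6 were under 1 TPM in every column, but Ighm, the immunoglobulin heavy chain constant region, fell from 69.1, 79.2 and 65.1 TPM to 20.1, 21 and 19.2 TPM. Of 8 granulocyte and mast cell markers S100a8 alone passed the filter, at 3.07, 0.801 and 0.695 TPM in DMSO and 0.945, 1.44 and 0.445 TPM in LPS, and none of the 6 dendritic cell markers did.

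Secreted cytokines gave some of the largest increases. Of 34 cytokines listed, 18 passed the filter, 10 rose, 1 fell (Igf1) and 7 were not called, beside 12% higher and 19.3% lower of all genes tested. Their median log2 fold change was 0.94, compared with -0.07 over all genes tested. Csf3, Il1b, Il1a and Il6 passed the filter only through their LPS values and Igf1 only through its DMSO values, which set their direction. Csf3, which encodes the granulocyte growth factor G-CSF, was listed at 0 in all DMSO columns and at 42.1, 43.1 and 41.1 TPM in LPS (adjusted p = 8.1e-06). Il1b, the precursor of IL-1 beta, was 0, 0.0961 and 0.369 TPM in DMSO and 28.1, 32.3 and 23.9 TPM in LPS. The LPS columns lay far above the DMSO columns, and the log2 fold change was 4.66 ± 0.20 (SE, 3 DMSO and 2 LPS values; adjusted p = 2.2e-05). Il1a, its relative that also acts as an alarm signal, was 0, 0.258 and 0 TPM and then 18.1, 20.9 and 15.2 TPM (adjusted p = 3.2e-05). Il6, the fever and acute-phase cytokine, was at 0 in the DMSO group and at 4.35, 3.69 and 5.01 TPM in LPS, a low level although it was called (adjusted p = 0.00023).

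Tnf was already expressed without LPS. It was 53.1, 52.8 and 103 TPM in DMSO and 210, 209 and 212 TPM in LPS, a 3.02-fold rise (log2 fold change 1.65 ± 0.28, adjusted p = 0.0031), with DMSO replicate 7 apart from its group. The cytokine with the highest level was Spp1, which encodes osteopontin. It was 1599, 1539 and 1569 TPM in DMSO and 8380, 8950 and 7811 TPM in LPS, 5.34-fold higher with no overlap (adjusted p = 6.4e-06). Lif, Il18, Ebi3 and Vegfa were also called higher. Several textbook products of stimulated macrophages had a mean over the 6 columns under the filter. Il10, the main anti-inflammatory interleukin, was 1.62, 0 and 0.457 TPM in DMSO and 0.98, 1.19 and 0.774 TPM in LPS. Il12b, a subunit of IL-12 and IL-23, was listed at 0 in every LPS column, and Ifnb1, which encodes interferon beta, at 0.0372, 0.112 and 0 TPM. Csf2, the growth factor GM-CSF, was listed at 0 in DMSO and at 1.79, 1.86 and 1.72 TPM in LPS.

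Chemokines were the list with the highest median, at a log2 fold change of 2.42. Of 25 listed, 11 passed the filter, and of these 9 rose and 2 fell, beside 12% and 19.3% of all genes tested. Ccl5 and Ccl22 were among members that passed only through their LPS values, so they could not be called lower. Ccl3 and Ccl4, which attract monocytes and lymphocytes, reached the highest levels. Ccl3 was 277, 291 and 403 TPM in DMSO and 1716, 1628 and 1803 TPM in LPS, and Ccl4 was 79.2, 111 and 115 TPM and then 842, 873 and 811 TPM. The rises were 5.3-fold (adjusted p = 8.2e-05) and 8.28-fold (adjusted p = 4.2e-05). Ccl2, the monocyte attractant MCP-1, had the largest log2 fold change of the list. It was 4.64, 6.3 and 5.82 TPM in DMSO and 234, 241 and 226 TPM in LPS, 41.8-fold higher (log2 fold change 5.16 ± 0.12, adjusted p = 6.4e-06). Ccl5, known as RANTES, was 0.162, 0 and 0.429 TPM and then 15.3, 12.1 and 18.6 TPM (adjusted p = 6.2e-05).

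Cxcl2, a neutrophil attractant, varied widely in DMSO. It was 23.4, 46.9 and 117 TPM in DMSO and 385, 336 and 435 TPM in LPS, so the columns did not overlap although the DMSO values spanned a wide range (log2 fold change 2.90 ± 0.58, adjusted p = 0.0063, and 0.05 with LPS as 1 value). Cxcl10, the interferon-induced attractant of T cells, was 10.1, 7.11 and 7.44 TPM in DMSO and 40, 37.9 and 42.1 TPM in LPS (adjusted p = 0.00011). Both members that fell did so without overlap. Cxcl16, a membrane-bound scavenger receptor and chemokine, was 102, 101 and 94.2 TPM and then 21.1, 19.4 and 22.9 TPM, and Cxcl14 was 37.4, 39.2 and 37.2 TPM and then 4.14, 6.67 and 1.61 TPM. Ccl3, Ccl4, Ccl5 and Ccl9 are neighbours on chromosome 11. The window from 83000001 to 84000000 of the mm10 build is among those with many genes called higher. Of 16 genes tested there 7 were called higher and 1 lower (Wfdc17), beside 12% and 19.3% of all genes tested. The 7 were these 4 chemokines and Slfn2, Slfn4 and Slfn8, members of the Schlafen family. Ccl9 was not called with the GC trend removed, nor Slfn2 with LPS as 1 value.

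**Figure D3:**
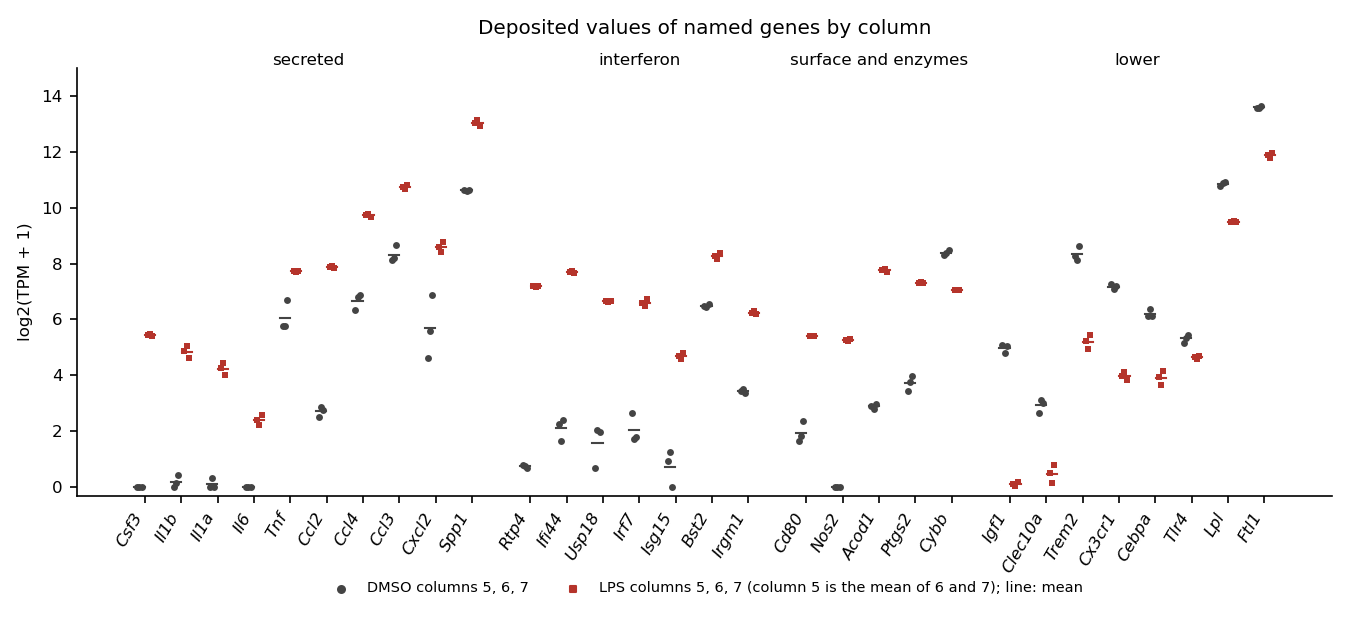
Values of named genes in log2(TPM + 1) in each of the 3 DMSO columns (dark circles) and 3 LPS columns (red squares, column 5 being the mean of 6 and 7), with lines at the group means. Csf3, Il6 and Nos2 sit at 0 in every DMSO column, Tnf has 1 DMSO column apart from the other 2, Cxcl2 has a wide DMSO spread, and the LPS columns do not overlap the DMSO columns for any gene plotted.

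Some promoters of these genes hold the letters of an NF-kB site. The 250 bases before the RefSeq transcription start (GRCm38.p6, the assembly that mm10 names) are printed 5′ to 3′ on the gene's own strand for Cxcl2 and Il6, whose windows hold the NF-kB motif and no ISRE core. Capitals mark matches to GGANTTTCC or GGGNTTTCC on either strand. The match starts 96 bases before the start in Cxcl2 and 43 bases before it in Il6.
Cxcl2, chr5:90903649-90903898, plus strand: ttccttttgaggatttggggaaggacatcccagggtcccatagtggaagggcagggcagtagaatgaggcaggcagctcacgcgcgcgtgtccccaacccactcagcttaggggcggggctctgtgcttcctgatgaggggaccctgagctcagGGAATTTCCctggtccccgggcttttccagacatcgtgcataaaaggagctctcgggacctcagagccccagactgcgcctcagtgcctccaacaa
Il6, chr5:30012864-30013113, plus strand: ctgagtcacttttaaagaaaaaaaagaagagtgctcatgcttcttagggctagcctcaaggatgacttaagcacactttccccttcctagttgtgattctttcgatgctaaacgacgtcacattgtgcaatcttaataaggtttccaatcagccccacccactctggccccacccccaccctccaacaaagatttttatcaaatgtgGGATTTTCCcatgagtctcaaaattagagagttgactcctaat
Over the 8739 genes tested that had a promoter in the table, the NF-kB motif was present in 3.33%, and in 4.92% of those called higher and 2.77% of those called lower. With the GC trend removed these shares were 4.02% of genes called higher and 3.22% of genes called lower. It was in 2.5% of all 32851 promoter windows, so it is rare in this strict spelling. A match is a description of letters and was not tested as a binding site.

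Interferon-induced genes rose together although Ifnb1 itself was at most 0.112 TPM. Of 48 genes listed 43 passed the filter, 39 were called higher, 0 lower and 4 (Ifi35, Ifit2, Stat2 and Irf1) not called by limma, with a median log2 fold change of 2.28. The background for a gene called higher was 12% of all genes tested. Rtp4, Ifi44l, Isg15, Rsad2 and Zbp1 were among members that passed only through their LPS values, so they could not be called lower. The summed level of the list went from 565, 572 and 607 TPM in DMSO to 2581, 2542 and 2621 TPM in LPS, 4.44-fold. Rtp4, a chaperone of receptor proteins that interferon induces, had the largest log2 fold change of all genes tested. It was 0.729, 0.679 and 0.606 TPM in DMSO and 144, 143 and 146 TPM in LPS, 215-fold higher (log2 fold change 6.44 ± 0.11, adjusted p = 3.3e-06). Rtp4 lies on chromosome 16 from 23520291 to 23614222, plus strand. Ifi44 and its neighbour on chromosome 3, Ifi44l, both encode interferon-induced cytoplasmic proteins. Ifi44 was 3.85, 2.13 and 4.27 TPM in DMSO and 206, 210 and 202 TPM in LPS, and Ifi44l was 1.22, 0.495 and 1.02 TPM and then 61.7, 64.9 and 58.5 TPM.

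Regulators and effectors were both among the genes that rose. Irf7, the transcription factor that amplifies interferon production, was 5.26, 2.29 and 2.51 TPM in DMSO and 96.1, 87.4 and 105 TPM in LPS (28.6-fold, adjusted p = 6.9e-05). Usp18, the protease that removes ISG15 from proteins and dampens the receptor, was 0.59, 3.14 and 2.95 TPM and then 99.6, 98 and 101 TPM. Its substrate tag Isg15, a ubiquitin-like protein, was 0.92, 1.4 and 0 TPM and then 25.1, 23.3 and 27 TPM. Among the effectors Bst2, which tethers budding virus particles to the cell, had the highest level, at 88.4, 87 and 92.2 TPM in DMSO and 311, 289 and 333 TPM in LPS. Rsad2, the antiviral enzyme viperin, was 0, 0.272 and 0 TPM and then 4.26, 4.63 and 3.9 TPM. Zbp1, a sensor of double-stranded nucleic acids in the Z form, was 0, 0 and 0.0568 TPM and then 6.92, 4.9 and 8.95 TPM. Irf1, an interferon-induced transcription factor, moved the other way without being called, at 14.4, 12.8 and 14.9 TPM in DMSO and 9.14, 9.39 and 8.9 TPM in LPS (log2 fold change -0.56, adjusted p = 0.0053, short of the fold limit on the log scale).

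Large GTPases that act against intracellular microbes rose where they were expressed, and 9 of 16 listed stayed under 1 TPM in every column. Of the list 6 passed the filter and all 6 were called higher, beside 12% of all genes tested, with a median log2 fold change of 2.17. Gbp7 and Gbp3 were among members that passed only through their LPS values, so they could not be called lower. Irgm1, an autophagy-linked GTPase, was 9.93, 10.4 and 9.27 TPM in DMSO and 74.9, 77.7 and 72.2 TPM in LPS (7.6-fold, adjusted p = 1.2e-05), and Gbp7 was 0, 0.105 and 0.114 TPM and then 7.41, 7.94 and 6.88 TPM. The members differed in level. Gbp2 and Gbp5, which interferon gamma induces strongly in other settings, reached no more than 0.19 and 0.264 TPM in LPS. Some interferon genes that rose also lie side by side, here in windows with many genes called higher, beside 12% of all genes tested. In the window from 173000001 to 174000000 on chromosome 1, 6 of 8 genes tested were higher (Ifi202b, Ifi203, Ifi204, Ifi207, Ifi211 and Mndal, DNA-sensing proteins of the Ifi200 family). On chromosome 5 from 120000001 to 121000000, 5 of 13 were higher and 6 lower (2 lower with the GC trend removed), and the 5 were Oas genes, whose enzymes make the signal that activates RNase L. A window on chromosome 12 from 55000001 to 56000000 held 6 of 12 genes called higher (3 with the GC trend removed), none of them in the interferon list. Genes of the Ifi200 and Oas families share near-identical stretches, so reads could have been split between copies.

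Promoters are printed for 4 genes of this response, chosen because Ifi44 was among the largest rises and the other 3 hold both motifs. Capitals mark matches to the ISRE core TTTCNNTTT and to the NF-kB motif given above, on either strand, and overlapping matches run together. The matches begin 55 bases before the start in Ifi44 (ISRE), 77, 71 and 65 (ISRE) and 41 (NF-kB) in Isg15, 212 (ISRE) and 158 (NF-kB) in Cxcl10, and 85 (NF-kB) and 64 (ISRE) in Acod1, the itaconate enzyme described below.
Ifi44, chr3:151749911-151750160, minus strand: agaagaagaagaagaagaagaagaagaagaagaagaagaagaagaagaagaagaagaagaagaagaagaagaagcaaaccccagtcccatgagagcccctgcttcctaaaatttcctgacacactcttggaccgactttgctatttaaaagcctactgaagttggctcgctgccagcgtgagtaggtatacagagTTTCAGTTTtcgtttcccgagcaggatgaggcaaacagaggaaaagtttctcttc
Isg15, chr4:156200819-156201068, minus strand: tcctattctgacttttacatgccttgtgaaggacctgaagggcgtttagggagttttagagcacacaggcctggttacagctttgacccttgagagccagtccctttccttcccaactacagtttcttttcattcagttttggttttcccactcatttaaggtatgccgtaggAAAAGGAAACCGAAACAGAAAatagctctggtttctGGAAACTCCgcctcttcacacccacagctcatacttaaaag
Cxcl10, chr5:92348890-92349139, minus strand: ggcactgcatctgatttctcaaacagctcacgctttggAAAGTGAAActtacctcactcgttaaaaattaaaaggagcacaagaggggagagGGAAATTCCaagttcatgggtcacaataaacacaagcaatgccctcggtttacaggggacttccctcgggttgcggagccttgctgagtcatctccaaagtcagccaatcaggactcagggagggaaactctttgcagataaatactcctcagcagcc
Acod1, chr14:103046762-103047011, plus strand: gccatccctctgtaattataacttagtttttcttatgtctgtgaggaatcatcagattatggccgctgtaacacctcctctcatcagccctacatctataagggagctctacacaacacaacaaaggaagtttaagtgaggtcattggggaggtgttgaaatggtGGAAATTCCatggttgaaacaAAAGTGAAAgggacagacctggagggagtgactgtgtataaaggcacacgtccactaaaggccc
The ISRE core was in 18 of 31 promoters of the interferon list (58.1%), in 12.3% of genes called higher, 7.92% of genes called lower and 8.56% of all genes tested with a promoter. With the GC trend removed it was in 16.3% of genes called higher and 8.27% of genes called lower. The interferon list was chosen as genes known to answer to interferon, so its share is a description and not a test. A motif of E2F, which drives the genes of DNA replication (TTTCGCGC or TTTGGCGC, either strand), was in 1.57% of promoters of genes called higher and 1.77% of those called lower, with 1.64% over all tested. Of 82 named genes that rose 56 had a promoter in the table, and 21 of these held the NF-kB motif or the ISRE core. Many were named as marked list members, interferon genes among them, so this count is a description. The share of all genes tested that hold either motif was not computed.

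Of 24 genes tested that sense LPS and carry its signal 3 were called higher and 4 lower, beside 12% and 19.3% of all genes tested, with a median log2 fold change of 0.06. With the GC trend removed 1 was higher and 6 lower, and with LPS as 1 value 1 and 4. Tlr4, the receptor, was 35, 39.7 and 42.6 TPM in DMSO and 24, 23.1 and 24.8 TPM in LPS (log2 fold change -0.68 ± 0.10, adjusted p = 0.0017), and it remained called with the GC trend removed. Its co-receptor Ly96 was 24.3, 14 and 21 TPM and then 35.4, 42.4 and 28.4 TPM, called higher at an adjusted p of 0.019 but not with the GC trend removed (0.31) or with LPS as 1 value (0.095). Cd14, which hands LPS to the receptor, was 1328, 1260 and 1301 TPM and then 1523, 1560 and 1486 TPM, a small difference that did not reach the fold limit. Myd88 was 97.3, 88.9 and 113 TPM and then 91.9, 91.2 and 92.5 TPM, within the spread of the DMSO columns. Irak3, which blocks the MyD88 complex, was called higher, at 14.1, 12.4 and 10.2 TPM and then 19.4, 19.6 and 19.1 TPM, but not with LPS as 1 value (adjusted p = 0.082). Tab1, an activator of the kinase TAK1, fell most, from 24.5, 23.7 and 23.3 TPM to 8.79, 9.05 and 8.52 TPM.

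Of 15 NF-kB genes tested 5 were called higher and 4 lower (7 and 2 with the GC trend removed), beside 12% and 19.3% of all genes tested. Nfkb1, which encodes the p50 subunit, was 84.9, 80.8 and 82.8 TPM in DMSO and 143, 135 and 150 TPM in LPS (1.72-fold, adjusted p = 0.00013). Rela, the p65 subunit, was 69.4, 67.9 and 71.1 TPM and then 43.1, 41.5 and 44.7 TPM, called lower at an adjusted p of 0.00027 but not with the GC trend removed (0.13). Nfkbia, the inhibitor IkB alpha, was 142, 144 and 163 TPM and then 210, 219 and 202 TPM, below the fold limit at 1.4-fold and above it with the GC trend removed. Nfkbiz, a nuclear inhibitor-like protein that helps switch on Il6, was 7.38, 8.22 and 20.6 TPM in DMSO and 41, 38.1 and 44 TPM in LPS, with DMSO replicate 7 again the highest of its group. It was called at an adjusted p of 0.0081, but not with LPS as 1 value (0.061). Tnip3, an A20-binding protein, fell from 101, 101 and 107 TPM to 55.6, 55.3 and 56 TPM. Of the kinases that the study examined as proteins, Mapk3, which encodes ERK1, fell from 152, 167 and 165 TPM to 75.5, 75.1 and 75.9 TPM. Mapk14, which encodes p38 alpha, was called lower at 99.5, 103 and 114 TPM and then 65.5, 66.9 and 64 TPM, but not with the GC trend removed. Chuk, Ikbkb and Mapk8 were not called, with log2 fold changes of 0.56, -0.01 and 0.30.

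Of 16 genes tested that limit the response 9 were called higher and 4 lower, beside 12% and 19.3% of all genes tested, with a median log2 fold change of 0.72. Il1rn, which encodes the antagonist of the IL-1 receptor, rose most, from 11.2, 11.5 and 26.1 TPM in DMSO to 108, 105 and 111 TPM in LPS (6.63-fold, adjusted p = 0.00084). Socs3, a brake on cytokine receptors, was 12.1, 12.5 and 14.4 TPM and then 21.7, 23.9 and 19.5 TPM. Zc3h12a, an RNase that degrades Il6 mRNA, was 13.9, 13.4 and 12.8 TPM and then 24.8, 23.6 and 26 TPM. Cd274, the checkpoint ligand PD-L1, was called higher at 9.61, 10.2 and 9.04 TPM from 4.82, 6.56 and 4.86 TPM, but not with the GC trend removed (adjusted p = 0.06) or with LPS as 1 value (0.08). Some members were lower. Atf3, a stress-induced repressor, was 92.5, 104 and 151 TPM in DMSO and 11.7 TPM in every LPS column (log2 fold change -3.17 ± 0.19, adjusted p = 7.2e-05), and Zfp36, which destabilizes cytokine mRNAs, was 124, 135 and 175 TPM and then 70.1, 64.2 and 76.1 TPM. Dusp1, a MAP kinase phosphatase, also fell.

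The enzymes and products that mark M1 macrophages were mixed. Of 23 tested 11 rose and 6 fell, beside 12% and 19.3% of all genes tested, with a median log2 fold change of 0.42. Nos2, Lcn2 and Mmp9 were among members that passed the filter only through their LPS values, so they could not be called lower. Nos2, the inducible nitric oxide synthase and a defining M1 enzyme, was listed at 0 in all DMSO columns and at 37.5, 36.2 and 38.8 TPM in LPS (adjusted p = 9.6e-06). Acod1, which makes the antimicrobial metabolite itaconate, was 6.42, 6 and 6.8 TPM in DMSO and 216, 225 and 206 TPM in LPS, 33.7-fold higher (log2 fold change 4.87 ± 0.08, adjusted p = 3.3e-06). Ptgs2, the prostaglandin enzyme COX-2, was 9.83, 12.6 and 14.9 TPM and then 158, 161 and 156 TPM. Lcn2, the siderophore-binding protein, was listed at 0 in DMSO and at 24.8, 24.1 and 25.4 TPM in LPS. The genes that fell were mostly subunits of the phagocyte oxidase, which makes superoxide. Cybb, its catalytic subunit, was 318, 330 and 356 TPM in DMSO and 132, 131 and 133 TPM in LPS (2.54-fold lower, adjusted p = 2.9e-05), Ncf1 was 338, 346 and 340 TPM and then 185, 189 and 180 TPM, and Ncf4 was called lower but not with the GC trend removed. Sod2, which encodes mitochondrial superoxide dismutase, was 43.6, 50.7 and 47.1 TPM and then 41.7, 40.4 and 43.1 TPM and was called in neither direction, and lower with the GC trend removed. Mmp13, a collagenase, stayed at or under 0.155 TPM in every column, and Marco was listed at 0 in all 6.

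In all, 7 genes were listed at 0 in every DMSO column and at 5 TPM or more in every LPS column, and 0 showed the reverse. They were Csf3, Nos2, Lcn2, Upp1, Serpinb2, Myo1h and Gm28048. Serpinb2, a protease inhibitor of activated macrophages, was 9.11, 10.9 and 7.33 TPM in LPS. Upp1, which breaks down uridine, was 5.17, 5.14 and 5.19 TPM, and Myo1h was 7.14, 7.35 and 6.94 TPM. Gm28048 stood at 27.4 TPM in all LPS columns, and its exons overlap those of B3gnt2 and Commd1, so its level is uncertain. Scin, an actin-severing protein, came close to this pattern, at 0, 0.0843 and 0.211 TPM in DMSO and 43.2, 41.8 and 44.6 TPM in LPS.

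Of 20 genes of MHC class I and the immunoproteasome 3 were called higher and 5 lower, beside 12% and 19.3% of all genes tested, with a median log2 fold change of 0.04, and with the GC trend removed 5 were higher and 2 lower. B2m, the shared light chain, was 1106, 1148 and 1129 TPM in DMSO and 2273, 2300 and 2246 TPM in LPS, 2.02-fold higher (adjusted p = 2.2e-05), and with the GC trend removed it fell short of the fold limit (log2 fold change 0.54). The classical heavy chain H2-K1 was 210, 234 and 206 TPM and then 210, 204 and 216 TPM, and H2-D1 was 331, 366 and 391 TPM and then 371, 368 and 375 TPM, with overlapping columns in both. The non-classical heavy chain H2-T23 rose from 11.8, 13.3 and 9.58 TPM to 59, 53.3 and 64.6 TPM (5.1-fold, adjusted p = 7.4e-05). H2 genes are near-identical copies, so their levels are uncertain. Psmb9, an immunoproteasome subunit, fell from 20.2, 14.4 and 18.4 TPM to 7.12, 5.25 and 8.98 TPM, and its exons overlap Tap1 on the other strand.

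MHC class II and costimulation had 5 genes called higher and 2 lower of 10 tested (4 and 1 with the GC trend removed, and the same counts with LPS as 1 value). Of all genes tested 12% were called higher and 19.3% lower. Cd80, which binds CD28 on T cells, rose most. It was 2.18, 2.52 and 4.21 TPM in DMSO and 41.3, 41.5 and 41.1 TPM in LPS (13.9-fold, log2 fold change 3.45 ± 0.22, adjusted p = 7.8e-05). Its relative Cd86, which the study used as an M1 surface marker, stayed under the filter, at 0.0419, 0.176 and 0 TPM in DMSO and 0.527, 0.578 and 0.475 TPM in LPS, so it was not tested. The columns of Cd86 did not overlap, at a level under 1 TPM. Cd40 rose from 1.52, 1.72 and 1.49 TPM to 4.42, 4.68 and 4.17 TPM, and Cd74, the MHC class II chaperone, from 301, 333 and 302 TPM to 479, 498 and 461 TPM. Icam1, an adhesion ligand, was 96.7, 98.4 and 109 TPM and then 89.2, 82.9 and 95.5 TPM and was not called.

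Genes of resting and M2 macrophages had a median log2 fold change of -1.23, compared with -0.07 over all genes tested, of which 19.3% were called lower and 12% higher. Of 23 listed 9 passed the filter, 5 fell and 1 (Tmem26, not called with the GC trend removed or with LPS as 1 value) was called higher. Igf1 and Clec10a passed only through their DMSO values, so they could not be called higher. Igf1, the insulin-like growth factor, had the largest fall of all genes tested. It was 33.2, 26.8 and 31.9 TPM in DMSO and 0.0902, 0.0312 and 0.149 TPM in LPS (log2 fold change -4.85 ± 0.14, adjusted p = 1.1e-05), and the gene lies on chromosome 10 from 87858265 to 87937042, plus strand. Trem2, a lipid-sensing receptor, was 306, 276 and 391 TPM and then 36.2, 29.9 and 42.5 TPM (8.95-fold lower, adjusted p = 3.5e-05). Clec10a, a galactose-binding lectin, was 5.31, 7.7 and 7.15 TPM and then 0.42, 0.102 and 0.737 TPM (adjusted p = 0.00024). Tgfb1, a growth factor with anti-inflammatory action, was 214, 223 and 242 TPM and then 199, 196 and 202 TPM and did not reach the fold limit. Several M2 markers were close to 0 in both groups. Mrc1, which encodes CD206, was 0.12, 0.0173 and 0.128 TPM in DMSO and 0.0266, 0.0305 and 0.0228 TPM in LPS. Arg1 was at most 1.09 TPM, Arg2 at most 1.57 TPM and Cd200r4 at most 1.43 TPM in any column. Neither Cd86 nor Mrc1, the pair of genes for the surface markers CD86 and CD206, could be tested at these levels.

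A list of transcription factors joined those of the macrophage lineage with immediate-early and other factors. Of 26 tested 14 were lower, compared with 19.3% of all genes, and 2 higher, with a median log2 fold change of -0.68. With the GC trend removed 12 were lower. Cebpa, a myeloid regulator, was 68.8, 81.8 and 69 TPM and then 14.3, 11.7 and 16.9 TPM, and Irf8, required for monocyte development, was 49.1, 42.4 and 47.4 TPM and then 19.7, 17.3 and 22.1 TPM. Spi1, which encodes PU.1, was 405, 409 and 411 TPM and then 233, 224 and 242 TPM, and its call ended with the GC trend removed (log2 fold change -0.30). Klf4, counted in the list of resting and M2 genes above, fell from 27.2, 29.4 and 24.1 TPM to 1.93, 1.65 and 2.21 TPM. The 2 of the 26 that rose were Myc, from 7.72, 7.16 and 6.81 TPM to 29, 33.2 and 24.7 TPM, and Hif1a, from 71.3, 81.6 and 86.9 TPM to 145, 144 and 145 TPM. The call of Hif1a ended with the GC trend removed. Among the immediate-early factors of the same list Fos, Fosb, Jun and Nr4a1 were called lower, and are part of the 14. Egr1, Egr2, Egr3 and Junb were not called. The call of Nr4a1 ended with the GC trend removed, and those of Fosb and Nr4a1 with LPS as 1 value.

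Surface receptors included members called in both directions. Of 26 receptors for antibodies, complement, chemokines and scavenged ligands 10 were called lower and 5 higher, beside 19.3% and 12% of all genes tested. Cx3cr1, the fractalkine receptor, was 153, 135 and 144 TPM in DMSO and 14.8, 16.2 and 13.4 TPM in LPS (9.75-fold lower, adjusted p = 7.1e-06). Clec7a, the beta-glucan receptor Dectin-1, was 26.7, 34.9 and 31.6 TPM and then 6.23, 6.85 and 5.61 TPM. Fcgr2b, the inhibitory antibody receptor, moved up, from 10.4, 7.15 and 12.8 TPM to 23.7, 27.3 and 20.1 TPM, and so did Ccr1, a receptor for Ccl3 and Ccl5, from 0.372, 0.635 and 0.573 TPM to 7.79, 8.08 and 7.49 TPM. Outside the lists, Alox5, which starts leukotriene synthesis, was 26.2, 23.2 and 24.2 TPM and then 1.75, 1.67 and 1.84 TPM. Myo1f, a myosin of immune cells, was 108, 105 and 112 TPM and then 10.7, 9.47 and 11.9 TPM. Mgst3, Gadd45g, Tifa and Gm21981 were also among the 12 largest falls of genes at 10 TPM or more, with log2 fold changes between -3.47 and -3.13, and the exons of Gm21981 overlap Tomm6 and Prickle4.

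Osteoclast genes included several large rises. RAW264.7 cells can form osteoclasts, the bone-resorbing cells of the same lineage. Of 10 such genes tested 5 were called higher and 2 lower (0 lower with the GC trend removed), beside 12% and 19.3% of all genes tested. Car2, the carbonic anhydrase that acidifies the resorption pit, was 122, 142 and 117 TPM in DMSO and 1509, 1524 and 1494 TPM in LPS (11.9-fold, adjusted p = 6.4e-06). Mmp9, a gelatinase, was 0.291, 0.0394 and 0.234 TPM and then 16.7, 17.6 and 15.7 TPM. Nfatc1, the master transcription factor of osteoclasts, was 54.9, 52.9 and 55.3 TPM and then 168, 166 and 170 TPM (3.09-fold, adjusted p = 1.3e-05). Acp5, the acid phosphatase TRAP, was 11.4, 17 and 16.6 TPM and then 44.8, 45.7 and 44 TPM, and Atp6v0d2, a proton pump subunit that fusion requires, was 4.63, 3.36 and 4.52 TPM and then 25, 26.6 and 23.3 TPM. The receptor RANK, encoded by Tnfrsf11a, was 55.4, 63.7 and 64.1 TPM and then 72.3, 73 and 71.6 TPM and was not called. Ctsk, which encodes cathepsin K, stayed under the filter at no more than 1.94 TPM.

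**Figure D4:**
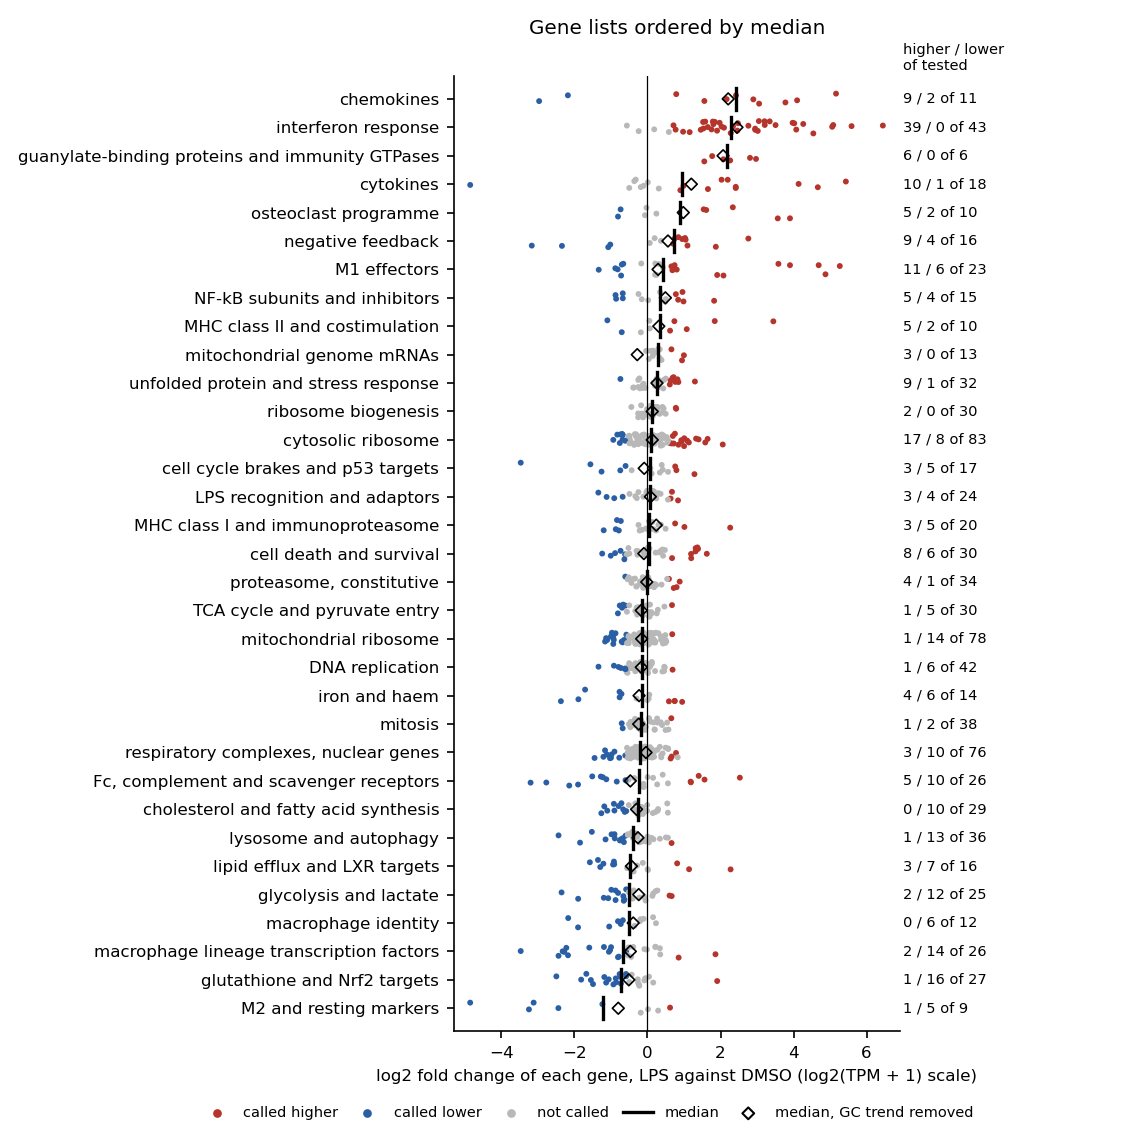
Log2 fold changes of the members of 33 gene lists that passed the filter, called higher in red, lower in blue and not called in grey, with the list's median as a bar and the median with the GC trend removed as a diamond. Counts called higher and lower of those tested stand at the right. Chemokines (2.42) and interferon genes (2.28) lead, M2 and resting markers (-1.23) are last, and the mitochondrial mRNAs change sign from 0.30 to -0.28 when the GC trend is removed.

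Glucose metabolism genes were lower in part, and the count changed with the GC correction. Of 25 genes of glycolysis and lactate handling 12 were called lower and 2 higher, beside 19.3% and 12% of all genes tested. Their median log2 fold change was -0.51. With the GC trend removed 7 were lower and 0 higher, with a median of -0.24. Pkm, the last enzyme of glycolysis, was 5708, 5972 and 6429 TPM in DMSO and 3845, 3780 and 3909 TPM in LPS, and its call ended with the GC trend removed (adjusted p = 0.071). Slc2a6, a lysosomal hexose transporter, fell with and without the correction, from 129, 125 and 124 TPM to 23.9, 23.6 and 24.1 TPM (5.28-fold). Hk2, a hexokinase, was 37.7, 38.7 and 37.9 TPM and then 46.2, 47.2 and 45.2 TPM, and Ldha, lactate dehydrogenase, was 2064, 2347 and 2104 TPM and then 1853, 1838 and 1869 TPM, neither of them called. Beside 12% of all genes called higher and 19.3% lower, the TCA cycle had 1 gene higher and 5 lower of 30 (0 and 2 with the GC trend removed). Nuclear genes of the respiratory complexes had 3 higher and 10 lower of 76. With the GC trend removed these were 3 and 9, but only 0 of the original higher and 8 of the original lower calls were kept. Of the 13 mRNAs of the mitochondrial genome 3 were called higher and 0 with the GC trend removed, and their median changed sign from 0.30 to -0.28. mt-Atp6 was 14147, 12781 and 10135 TPM in DMSO and 19278, 20034 and 18523 TPM in LPS. Its nuclear near-identical copy Gm10925 had almost the same values, 14277, 12972 and 10311 TPM and then 19765, 20536 and 18995 TPM, so the share of each is uncertain. Both lost their calls with the GC trend removed.

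Of 27 redox defence genes (glutathione metabolism and Nrf2 targets) 16 were called lower and 1 higher, beside 19.3% and 12% of all genes tested, with a median log2 fold change of -0.73. With the GC trend removed 11 were lower and 2 higher. Gstm1, a glutathione transferase, was 38.6, 35 and 37.7 TPM in DMSO and 5.76, 5.1 and 6.42 TPM in LPS (6.44-fold lower, adjusted p = 1.7e-05). Cat, which encodes catalase, was 135, 139 and 154 TPM and then 62.3, 65.3 and 59.3 TPM, and Nqo1, a quinone reductase, was 3.09, 2.17 and 3.12 TPM and then 0.186, 0.413 and 0 TPM. Hmox1, haem oxygenase, was 203, 191 and 208 TPM and then 118, 110 and 126 TPM, with the call lost when the GC trend was removed. The exception was Slc7a11, the cystine importer that supplies glutathione synthesis, which rose from 5.65, 6.47 and 8.08 TPM to 27.8, 27.1 and 28.5 TPM (4.13-fold, adjusted p = 0.00016). Gclm, a subunit of the rate-limiting enzyme, was 99.4, 95.7 and 109 TPM and then 71.3, 68.3 and 74.2 TPM, short of the fold limit and called lower with the GC trend removed.

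Among iron genes the largest loss was in the ferritin light chain. Ftl1 was 12121, 12092 and 12642 TPM in DMSO and 3759, 3525 and 3994 TPM in LPS, the largest loss of TPM of any gene called (3.27-fold lower, adjusted p = 1.2e-05). Its partner Fth1, the heavy chain, was 10264, 9732 and 9824 TPM and then 9919, 10421 and 9416 TPM, with overlapping columns (adjusted p = 0.96). Slc40a1, the iron exporter ferroportin, fell from 11.7, 11 and 12.4 TPM to 2.41, 2.43 and 2.4 TPM. Blvrb, which acts in haem breakdown, fell from 155, 141 and 159 TPM to 28.5, 27.8 and 29.2 TPM. Tfrc, the transferrin receptor that imports iron, was called higher, at 202, 200 and 248 TPM and then 417, 411 and 423 TPM, but not with the GC trend removed (log2 fold change 0.45). Outside the lists, large losses of TPM were also seen for S100a4, a calcium-binding protein, at 2016, 2077 and 2073 TPM and then 705, 635 and 774 TPM, and for Tmsb4x, which encodes the actin-binding thymosin beta 4, at 3155, 3341 and 2957 TPM and then 1745, 1823 and 1668 TPM. Ferritin genes have many processed copies, so some reads may have been placed elsewhere. Of 14 iron and haem genes tested 4 were called higher and 6 lower (1 and 4 with the GC trend removed), beside 12% and 19.3% of all genes tested.

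The lipid and lysosome lists stand beside 12% of all genes called higher and 19.3% lower, and 7.46% and 12.6% with the GC trend removed. Of 16 genes of lipid efflux and LXR targets 7 fell and 3 rose. Lpl, lipoprotein lipase, was 1766, 1877 and 1914 TPM in DMSO and 723, 726 and 720 TPM in LPS (2.56-fold lower, adjusted p = 1.6e-05). Apoe was 22.2, 14.7 and 17.1 TPM and then 6.68, 7.72 and 5.63 TPM. The cholesterol exporters moved apart, with Abcg1 at 35.9, 34.8 and 43.7 TPM and then 19.7, 19.1 and 20.4 TPM, called lower, and Abca1 at 1.94, 1.62 and 2.27 TPM and then 4.15, 4.35 and 3.95 TPM, called higher but not with LPS as 1 value (adjusted p = 0.08). Fabp4, a fatty acid carrier, rose from 0.388, 0.0613 and 0.248 TPM to 4.93, 4.58 and 5.28 TPM. Cholesterol and fatty acid synthesis had 10 of 29 genes called lower and 0 higher, and 3 lower with the GC trend removed. Of 36 lysosome and autophagy genes 13 were called lower and 1 higher (11 and 0 with the GC trend removed). Tfeb, the transcription factor of lysosomal genes, was 34, 27.7 and 36.6 TPM and then 5.21, 5.31 and 5.1 TPM (6.3-fold lower, adjusted p = 5.2e-05). Hexa, a lysosomal hexosaminidase, was 314, 350 and 356 TPM and then 153, 155 and 151 TPM, and Ctsb, cathepsin B, was 776, 751 and 867 TPM and then 497, 494 and 500 TPM. The membrane protein Lamp1 was 702, 725 and 805 TPM and then 764, 767 and 761 TPM and was not called.

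**Figure D5:**
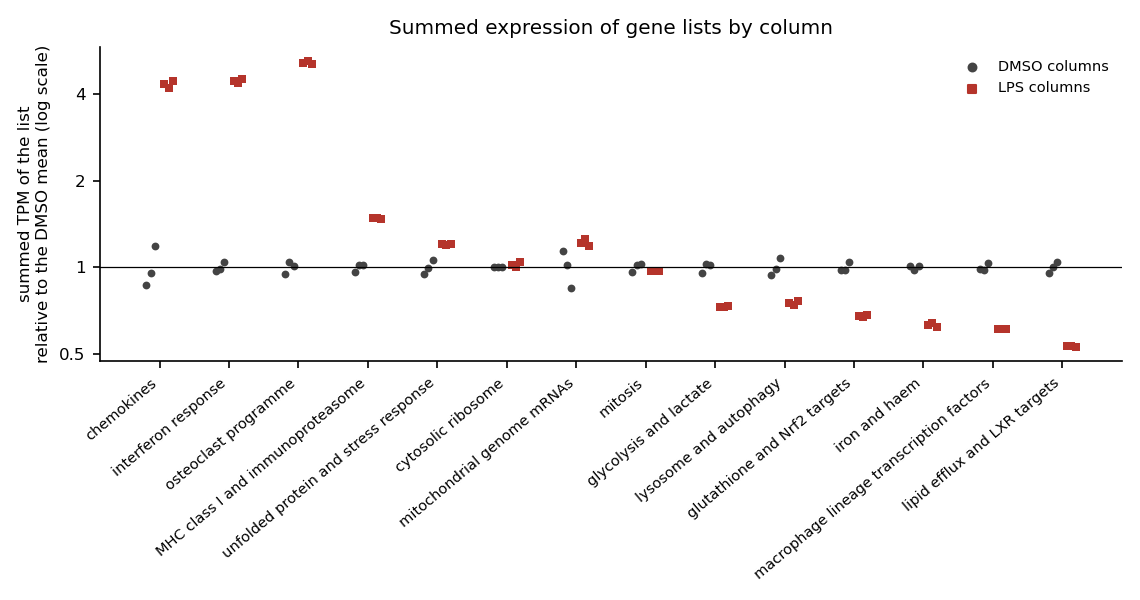
Summed TPM of the members of 14 lists in each DMSO column (dark circles) and LPS column (red squares), divided by the mean of the DMSO columns, on a log scale. Chemokines, interferon genes and osteoclast genes sit 4.32-, 4.44- and 5.15-fold above the DMSO mean, mitosis and the cytosolic ribosome at 0.971 and 1.02, and lipid efflux and LXR targets at 0.53. Most of the osteoclast rise, from 375 to 1934 TPM, was Car2, which went from a mean of 127 to 1509 TPM. Most of the lipid fall, from 2567 to 1361 TPM, was Lpl, from 1852 to 723 TPM. The median log2 fold changes of these 2 lists were 0.89 and -0.47.

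Few genes of cell division were called. Of 42 DNA replication genes 1 was called higher and 6 lower (0 and 2 with the GC trend removed), and of 38 mitosis genes 1 higher and 2 lower (1 and 4), beside 12% and 19.3% of all genes tested. Of 17 brakes and p53 targets 3 were higher and 5 lower. Pcna, the sliding clamp of replication, was 631, 690 and 720 TPM in DMSO and 660, 646 and 673 TPM in LPS, and Top2a, the topoisomerase of dividing cells, was 298, 313 and 343 TPM and then 327, 333 and 321 TPM. The columns overlapped for both. E2f2, a transcription factor of the cycle, fell from 21.2, 20.5 and 21 TPM to 7.63, 7.65 and 7.62 TPM. Cdkn1a, the inhibitor p21, was 116, 106 and 125 TPM and then 122, 113 and 131 TPM, whereas Gadd45a, a stress-induced brake, rose from 2.59, 4.22 and 3.27 TPM to 9.52, 8.68 and 10.4 TPM.

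Of 30 genes of cell death and survival 8 were called higher and 6 lower, beside 12% and 19.3% of all genes tested. Bcl2l1, which encodes the survival protein BCL-XL, was 17.5, 18.4 and 19 TPM in DMSO and 58.5, 53.4 and 63.6 TPM in LPS (3.2-fold, adjusted p = 4e-05). Bad, which opposes it, was 32.5, 34.5 and 31.2 TPM and then 13.3, 12.1 and 14.5 TPM, and Bax and Bak1, the pore formers of apoptosis, were called lower but not with the GC trend removed (Bak1 also not with LPS as 1 value). Casp4, the mouse caspase-11 that binds LPS inside the cell, rose from 13.9, 10.3 and 11.3 TPM to 31.9, 33.6 and 30.2 TPM. Gsdmd, the pore protein it cleaves, was 85.4, 89.9 and 81.2 TPM and then 50.9, 47.4 and 54.3 TPM, called lower but not with the GC trend removed. Fas, a death receptor, rose from 4.36, 4.96 and 4.32 TPM to 12.8, 13.1 and 12.5 TPM.

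The lists of translation and protein quality stand beside the same 12% higher and 19.3% lower of all genes tested. Of 83 cytosolic ribosomal protein genes 17 were called higher and 8 lower, with a median log2 fold change of 0.11, and with the GC trend removed 22 were higher and 1 lower. Their summed level stayed between 91273 and 91736 TPM in DMSO and was 93379, 91397 and 95360 TPM in LPS. Rps27 rose most, from 135, 124 and 136 TPM to 558, 397 and 718 TPM, and its LPS columns 6 and 7 were far apart. Ribosomal protein genes have many processed copies, so these levels are uncertain. Of 78 mitochondrial ribosomal protein genes 14 were called lower and 1 higher (9 and 2 with the GC trend removed), of 30 ribosome biogenesis genes 0 and 2, and of 34 constitutive proteasome genes 1 and 4 (0 and 2). The unfolded protein and stress response had 9 genes higher and 1 lower of 32, with a median log2 fold change of 0.27 (7 and 0 with the GC trend removed). Asns, asparagine synthetase, was 140, 141 and 146 TPM in DMSO and 257, 255 and 259 TPM in LPS (1.8-fold, adjusted p = 6e-05). Hspa5, the chaperone BiP, was 1165, 1280 and 1408 TPM and then 1813, 1773 and 1853 TPM, short of the fold limit at 1.41-fold with no overlap, and Ddit3, which encodes CHOP, was 36.9, 40.8 and 57 TPM and then 49.9, 38.3 and 61.5 TPM, with overlapping columns.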

How the data were processed

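TPM values per gene of the mouse line RAW264.7 were deposited by the authors in a table of the whole series, made from their reads with fastp 0.20.1, HISAT2 2.2.1 and StringTie 2.0 on mm10, per the labels. Libraries were made with the NEBNext Ultra RNA kit. Whether strand was used is not given in the sources used here, so overlapping and antisense genes cannot be told apart. TPM keeps no depth, so no counting interval was given. Of the series, 6 of 9 columns were used and the 3 of LPS with skatole entered only an alternative. Of 55401 gene IDs 55141 matched a symbol.

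Genes with a mean of at least 1 TPM were tested by limma 3.58.1 (R 4.3.3) with an intensity trend on log2(TPM + 1), 2-sided, with Benjamini-Hochberg adjustment over all 12919 genes. Calls needed an adjusted p below 0.05 together with a change of more than 1.5-fold up or to under 0.67 of DMSO. LPS column 5 was the mean of 6 and 7, so 2 values, column 5 plus and minus 0.5 times its difference from its farther neighbour, stood for the 3 columns. The recovered values rest on this relation and on no record of the original libraries. The GC trend was a loess curve (span 0.3) of each column's deviation on transcript GC content, with its median kept. On simulated data with 200 genes changed by 1.5 (log2) among 12919, 94.3% were recovered, with 3.82% false calls. The deposited data held 4050 calls and a GC trend between the groups. The share of false calls among these 4050 was not tested.

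The members, gene lists and motifs were chosen with earlier results of these data known. Genes were named by rule. These were the 12 largest rises and 12 largest falls among called genes at 10 TPM or more without overlap, the 6 largest gains and losses of TPM, marked members and extremes of each list, genes listed at 0 in DMSO and at 5 TPM or more in LPS, and genes the study measured by other assays. Members named only by symbol in a list's count are called members of that list. Promoters are from RefSeq (GRCm38.p6). Alternatives were other pseudocounts, filters, scalings and fits, leaving out each replicate, a replicate block, and the removal of GC and length trends. Python 3.11.15, pandas 2.3.3 and matplotlib 3.10.9 were used. Results for some genes are not reported here.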

Additional observations from a re-analysis of the deposited data

How the results depend on the processing

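The count of genes called higher was 1554 as reported and 964 with the GC trend removed, 865 with GC and length trends removed, 603 with the GC trend removed and LPS as 1 value, 2985 by adjusted p alone and 543 at a fold change above 2. The count called lower was 2496 as reported and 1627, 1721, 1045, 4088 and 922 in the same order. The median log2 fold change was -0.07 as reported, -0.009 with no filter on low values and 0.007 with median-ratio scaling. Leaving out a replicate gave 1139 to 1691 genes higher, 1924 to 2587 lower and medians from -0.086 to -0.052, and with 1 LPS value left that value is assumed to vary like the DMSO samples. The direction of mt-Atp6 reversed with GC and length trends removed (log2 fold change -0.004, adjusted p = 0.98). The cause of these changes was not tested. Of 157 named genes called, 110 kept the call at the same limits in each alternative fit that tested them (adjusted p alone and a fold change above 2 are not counted here), 35 were lost with the GC trend removed and 9 with LPS as 1 value. The GC, length and 1-value alternatives were chosen after the data had been seen. Correlations between same-numbered columns, taken on each column's deviations from its own group mean, were -0.004, 0.061 and 0.019. The LPS columns were not independent of each other, so whether the same replicate number pairs the samples was not tested by these values. With the replicate block on the 3 deposited columns 1648 genes were higher and 2627 lower (median -0.072), and without the block 1625 and 2577. Unknown depth limits statements on genes near 1 TPM.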
